A study of Mus musculus with 8 samples.

Results

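The interferon-induced genes Ifi35, Ifi44, Ifi30, Phf11a and Phf11d were followed across 8 arrays of polarized mouse intestinal epithelial cells stimulated with IFN-λ2 or IFN-β. Members were chosen by the gene name that the array design gives a probe, from 6 listed names (Ifi27, Ifi35, Ifi44, Ifi30, Phf11 and D14Ertd668e). Of the 31791 gene names on the array, 5 matched the list. Of its 39429 non-control probes, 6 carried one of these names, and all 6 were among the 25583 probes tested. Ifi35, Ifi44, Ifi30 and Phf11 have 1 probe each and D14Ertd668e has 2, while the name Ifi27 belongs to 0 of the probes analysed here. The design is older than current nomenclature, so that its Phf11 is now Phf11a and its D14Ertd668e is now Phf11d. Its Ifi27l1 probe carries an accession now listed as Ifi27, and it is described below among the paralogues because the rule does not take it.

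All cells were of the immortalized mouse intestinal epithelial line IEC10, so that every array stems from a single cell line. The study's methods describe a line with a luciferase gene driven by the Mx2 promoter. The cells were grown for 21 days on transwell inserts, porous supports on which epithelial cells form a polarized layer. Control cells were left untreated in medium (2 arrays, replicates 2 and 3), and the other cells received IFN-λ2 at 20 ng/mL (3 arrays) or IFN-β at 500 U/mL (3 arrays) for 9 h. Nothing in the labels says that replicates were separate cultures, so p-values measure the spread between these arrays, which may be technical.

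IFN-β is a type I interferon that binds the IFNAR1 and IFNAR2 receptor pair, whereas IFN-λ2 is a type III interferon that binds IFNLR1 and IL10RB, a pair found mainly on epithelia. Both receptors signal through the kinases JAK1 and TYK2 to transcription factors, IRF9 among them, that bind interferon-stimulated response elements in promoters. Ifi44, Ifi35, the Phf11 genes and the Ifi27 genes are known targets of this route, while Ifi30 is best known as a gene induced by interferon-γ in antigen-presenting cells.

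Signals are given in normalized gPS units, the scanner's background-subtracted processed signal scaled to a 75th percentile of 1500 on each array, with values under 15 set to 15. A level of 1 probe cannot be compared with that of another. Between 20992 and 24252 probes per array were marked as well above background, and all 6 member probes were so marked on all 8 arrays. The 8 epithelial markers examined, among them Cdh1, Epcam and Krt18, were well above background on all 8 arrays. Of the markers of other cell types, the endothelial Cdh5, the fibroblast markers Col3a1 and Pdgfra and the leukocyte marker Itgax were so on 0 arrays, whereas the endothelial Kdr, the fibroblast marker Vim and the leukocyte markers Cd14, Csf1r, Itgam, Cd68 and Cd3e were so on all 8. A difference was called at an adjusted p-value under 0.05 in limma with Benjamini-Hochberg adjustment over all probes tested. Per the file headers, arrays with the same replicate number shared a slide, and values within slides are given beside the pooled ones.

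With IFN-λ2, 5 of the 6 member probes were called higher than control, where 10.9% of all probes tested were, and 1 probe was called lower, where 8.28% were. With IFN-β, 5 member probes were called higher, where 1.51% of all probes were, and 0 lower, where 0.211% were. In a test per probe without moderation, 0 member probes were called higher with IFN-β after Benjamini-Hochberg adjustment, against 5 in limma, with the same log2 differences. Between the cytokines, 3 member probes were called higher with IFN-λ2, where 6.21% of all probes were, and 1 lower, where 5.34% were. On 5 member probes every IFN-λ2 array lay above both control arrays, as was the case for 26.6% of all probes, and on 1 every IFN-λ2 array lay below them, as for 23.7%. The IFN-β arrays lay above both controls on 5 member probes (14.7% of all probes) and below them on 0 (11.6%). The IFN-λ2 arrays all lay above the IFN-β arrays on 3 member probes (17.9% of all probes) and below them on 1 (15.1%). The comparisons with control share the 2 control arrays. The median log2 difference over all probes tested was 0.01 for each cytokine against control.

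The probes of the Phf11 genes are shown first, because the copies are similar in sequence. Phf11a and Phf11d encode PHD zinc finger proteins, a type of domain known to bind histone tails, and in the mouse they lie in a tandem cluster on chromosome 14. The Phf11a probe maps to chr14:59895771-59895830 (mm9, minus strand). Probe 1 of Phf11d maps to chr14:59968139-59968198 and probe 2 to chr14:59967581-59967640 (mm9, minus strand). The Phf11a probe and probe 2 of Phf11d overlap by 51 bases when aligned without gaps, of which 48 are identical (94.1%), and how much of either signal comes from the other gene's transcript was not tested. A 30-base stretch that holds all 3 mismatches is given with the mismatched bases in capitals, which read C2A, C25T and G28C from Phf11a to Phf11d with positions counted from 1 at the 5′ end of the stretch. Probe 1 of Phf11d is also shown. Its best-scoring alignment with the Phf11a probe, by identical minus mismatched bases, held 8 identical bases of 17. The alignment compared probes and not transcripts, so whether probe 1 also binds transcripts of other Phf11 genes was not tested.
Phf11a probe, stretch: cCtgggtttatgctcactatcataCcaGat
Phf11d probe 2, stretch: cAtgggtttatgctcactatcataTcaCat
Phf11d probe 1: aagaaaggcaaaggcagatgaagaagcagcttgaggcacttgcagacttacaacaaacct

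Phf11a was at 101 and 68.3 units on the arrays of control replicates 2 and 3. With IFN-λ2 it reached 1925, 2094 and 1981 units on the arrays of replicates 1, 2 and 3. With IFN-β it reached 778, 966 and 1062 units. All 3 groups were separate, with control lowest and IFN-λ2 highest. The means were 84.8 ± 23.4 units in control (SD, n = 2), 2000.0 ± 85.8 with IFN-λ2 (n = 3) and 935 ± 144 with IFN-β (n = 3). Phf11a was therefore 24.0-fold over control with IFN-λ2 (95% interval 17.6 to 32.8, log2 4.59 ± 0.19 SE, adjusted p = 1.3e-05, limma) and 11.2-fold with IFN-β (8.17 to 15.2, log2 3.48 ± 0.19, adjusted p = 7.3e-05). With normexp background correction these differences were smaller, at log2 3.86 and 2.76, and both calls were kept. The ratio of IFN-λ2 to IFN-β was 2.15 (1.63 to 2.85, adjusted p = 0.00816), and within slides it was 2.48, 2.17 and 1.87 for replicates 1, 2 and 3.

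Probe 1 of Phf11d was at 175 and 140.1 units in control, at 2767, 3189 and 2567 units with IFN-λ2 and at 1076, 1237 and 1278 units with IFN-β. The order of the groups was that of Phf11a, again with no overlap. Induction was 18.1-fold with IFN-λ2 (14.4 to 22.8, log2 4.18 ± 0.14, adjusted p = 4.5e-06, limma) and 7.63-fold with IFN-β (6.07 to 9.60, log2 2.93 ± 0.14, adjusted p = 3.7e-05). The ratio between the cytokines was 2.37 (1.93 to 2.91, adjusted p = 0.00169), and 2.57, 2.58 and 2.01 within slides.

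Probe 2 of Phf11d was at 441 and 328 units in control, at 8689, 9690.2 and 8619 units with IFN-λ2 and at 3737, 4243 and 4709.6 units with IFN-β. It also separated the 3 groups, in the order of probe 1. The changes were 23.6-fold with IFN-λ2 (18.4 to 30.3, adjusted p = 4.4e-06, limma) and 11.1-fold with IFN-β (8.63 to 14.2, adjusted p = 2.5e-05), and the ratio between the cytokines was 2.13 (1.71 to 2.67, adjusted p = 0.00357). Within slides this ratio was 2.33, 2.28 and 1.83.

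**Figure D1:**
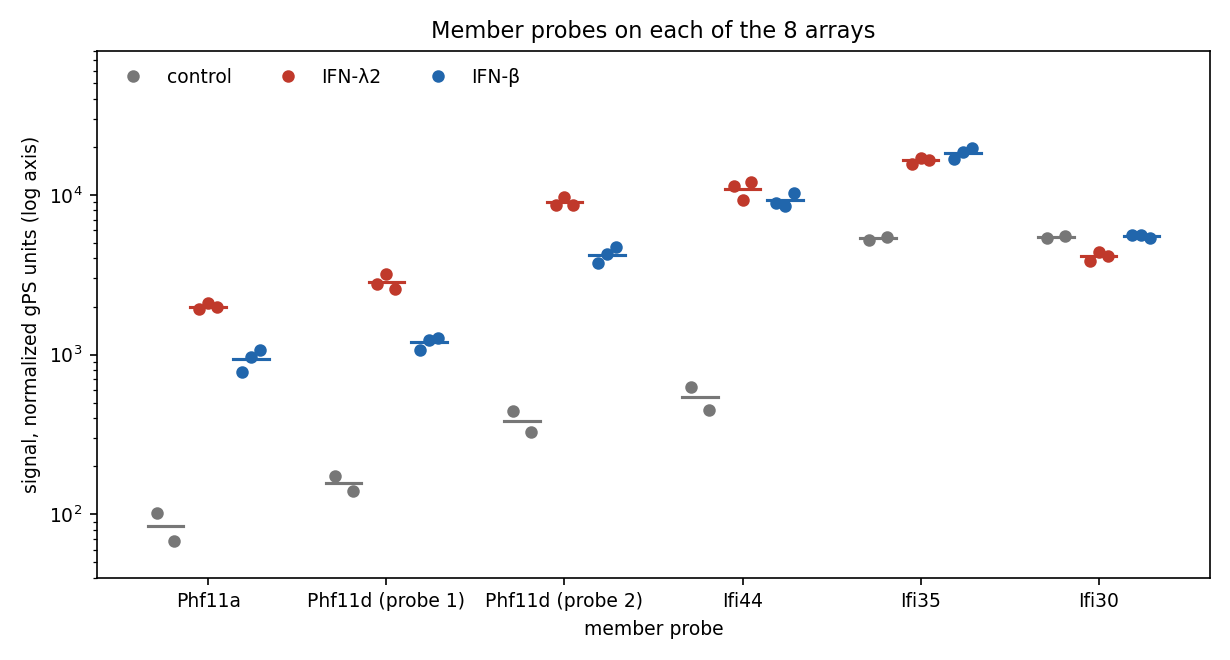
Signal of the 6 member probes on each array, in normalized gPS units on a log axis, with 1 point per array and a line at the arithmetic mean of 2 control, 3 IFN-λ2 and 3 IFN-β arrays. The 3 Phf11 probes separate all groups, with IFN-λ2 highest, Ifi44 and Ifi35 separate both cytokines from control only, and Ifi30 is lower on the IFN-λ2 arrays than on the others.

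The paralogues and partners of the members were examined as a list of 8 names. Ifi44l and H28 are names of the same gene, so that the list held 7 genes, all with a probe, of which 5 were tested. With IFN-λ2, 5 of the 5 were called higher, with IFN-β 4 were, and between the cytokines 4 were called higher with IFN-λ2 and 0 lower. Of all probes tested, 10.9%, 1.51% and 6.21% were called higher in these comparisons. The median log2 differences were 1.72, 1.51 and 0.74 in these comparisons, against 0.01, 0.01 and 0.00 over all probes tested.

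Phf11b, the copy that lies between Phf11a and Phf11d, was at 78.7 and 58.1 units in control, at 1018, 1132 and 1034 units with IFN-λ2 and at 296, 329 and 351 units with IFN-β. It was 15.7-fold over control with IFN-λ2 (adjusted p = 5.8e-06) and 4.80-fold with IFN-β (adjusted p = 0.000156), and the ratio between the cytokines was 3.27 (2.65 to 4.02, adjusted p = 0.000513, limma). Its log2 differences from control of 3.97 and 2.26 became 3.15 and 1.54 with normexp, and both were still called. The best-scoring alignment of its probe with a Phf11d probe held 8 identical bases of 16, and its match to the other Phf11 transcripts was not tested. Phf11c, on the far side of Phf11d, was close to background, at 24.8 and 23.4 units in control, 37.6, 48.9 and 38.8 with IFN-λ2 and 30.2, 23.1 and 22.1 with IFN-β. It was called higher with IFN-λ2 than with control (log2 0.78, adjusted p = 0.0194) and than with IFN-β (log2 0.74, adjusted p = 0.0222), where 2 of 3 IFN-β arrays were well above background. The call against control was lost with normexp background correction, with the replicate number as a block and without either control array (highest adjusted p = 0.188), and the call between the cytokines was lost in 7 of 10 alternatives, among them normexp, the block and each omission of an IFN-λ2 array (highest adjusted p = 0.108). The probe Gm6904, now named Phf11, was listed at 15 units on all 8 arrays.

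Ifi27 and its relatives encode small hydrophobic proteins that interferons induce. The probe named Ifi27l1, now Ifi27 (chr12:104678353-104678412, mm9), was at 17324 and 15507 units in control. With IFN-λ2 it rose to 48120.3, 50227 and 54155 units, and with IFN-β to 29397, 30262 and 33663 units. The groups did not overlap. The change was 3.098-fold with IFN-λ2 (adjusted p = 7.7e-05) and 1.90-fold with IFN-β (adjusted p = 0.0033), and the ratio between the cytokines was 1.64 (1.419 to 1.88, adjusted p = 0.00332, limma), with 1.64, 1.66 and 1.61 within slides. Ifi27l2a was at 1549 and 1339.8 units in control, at 8931, 11820.2 and 9605 units with IFN-λ2 and at 4053, 4167 and 4077 units with IFN-β. Its ratio between the cytokines was 2.45 (2.03 to 2.96, adjusted p = 0.00108). The probes of Ifi27l2b were well above background on 0 arrays.

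Ifi44 encodes a cytoplasmic protein with reported antiviral and antiproliferative activity. Its probe (chr3:151394035-151394094, mm9, minus strand) is printed because every Ifi44 value rests on it.
Ifi44 probe: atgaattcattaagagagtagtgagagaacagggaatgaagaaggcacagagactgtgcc

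Ifi44 was at 630.4 units on the array of control replicate 2 and at 449 units on that of control replicate 3. With IFN-λ2 it was at 11300.4, 9338 and 12015 units, and with IFN-β at 8868, 8558 and 10333.5 units. Both cytokines lay far above control, and their ranges overlapped. Means were 539.8 ± 128 units in control (SD, n = 2), 10884 ± 1386 with IFN-λ2 (n = 3) and 9253 ± 948 with IFN-β (n = 3). Ifi44 was 20.3-fold over control with IFN-λ2 (15.2 to 27.2, log2 4.35 ± 0.18 SE, adjusted p = 1.2e-05, limma) and 17.3-fold with IFN-β (13.0 to 23.1, log2 4.12 ± 0.18, adjusted p = 2.3e-05). Against control within slides, the IFN-λ2 ratio was 14.8 for replicate 2 and 26.8 for replicate 3, and the IFN-β ratio 13.6 and 23.0, where replicate 3 had the lower control array and the higher array of each cytokine. The ratio of IFN-λ2 to IFN-β was 1.17, with an interval of 0.907 to 1.52 (adjusted p = 0.414), so that a difference of up to 1.52-fold was within the error. Its neighbour and paralogue Ifi44l, named H28 on the array, was listed at 15 units on all 8 arrays.

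Ifi35 encodes a leucine zipper protein that forms a complex with NMI, another interferon-induced protein. Its probe lies at chr11:101319011-101319070 (mm9, plus strand).
Ifi35 probe: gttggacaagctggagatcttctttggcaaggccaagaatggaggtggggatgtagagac

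Ifi35 was at 5229 and 5472 units in control, at 15652, 17121 and 16598 units with IFN-λ2 and at 16729, 18500 and 19579 units with IFN-β. Both cytokines were above control without overlap, and the 2 cytokines overlapped each other. Means were 5350.2 ± 172 units in control (SD, n = 2), 16457 ± 744 with IFN-λ2 (n = 3) and 18269 ± 1439 with IFN-β (n = 3). The change was 3.08-fold with IFN-λ2 (2.66 to 3.56, log2 1.62 ± 0.09 SE, adjusted p = 5.1e-05, limma) and 3.41-fold with IFN-β (2.94 to 3.94, log2 1.77 ± 0.09, adjusted p = 4.8e-05). The ratio of IFN-λ2 to IFN-β was 0.902 (0.792 to 1.03, adjusted p = 0.293), and it was below 1 on every slide, at 0.936, 0.925 and 0.848. Nmi showed values of the same size, with 3.29-fold induction by IFN-λ2 (adjusted p = 3.3e-05), 3.34-fold by IFN-β (adjusted p = 4.4e-05) and a ratio between the cytokines of 0.987 (0.870 to 1.12, adjusted p = 0.915). The difference between Ifi35 and Nmi was not tested.

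Ifi30 encodes GILT, a lysosomal thiol reductase that opens disulfide bonds of engulfed proteins before their peptides are loaded on MHC class II. The 60-base probe covers 727 bases of the genome, chr8:73287747-73288473 (mm9, minus strand), and so spans a gap in the alignment.
Ifi30 probe: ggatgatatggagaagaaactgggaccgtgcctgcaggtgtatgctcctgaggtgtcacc

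Ifi30 was at 5346 and 5529 units in control. With IFN-λ2 it was at 3883, 4386 and 4145 units, and with IFN-β at 5607, 5589 and 5349 units. The IFN-λ2 arrays lay below all others, and the IFN-β arrays lay around the control arrays. Means were 5438 ± 129 units in control (SD, n = 2), 4138 ± 251 with IFN-λ2 (n = 3) and 5515 ± 144 with IFN-β (n = 3). Ifi30 fell with IFN-λ2, by 0.40 on the log2 scale (SE 0.08), to 0.760 of control (0.671 to 0.862, adjusted p = 0.0136, limma). With IFN-β its ratio to control was 1.01 (0.895 to 1.15, adjusted p = 0.951). The ratio of IFN-λ2 to IFN-β was 0.750 (0.670 to 0.839, adjusted p = 0.0106), and 0.693, 0.785 and 0.775 within slides. The call against control was lost without control replicate 3 (log2 -0.37, adjusted p = 0.0676), and both calls were lost with normexp background correction (log2 -0.45, adjusted p = 0.171, against control and log2 -0.46, adjusted p = 0.128, against IFN-β). Of all probes called lower with IFN-λ2 than control, 2118 in number with a median of -0.56, 1074 were also called lower than with IFN-β.

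Among markers of other cell types, Vim, an intermediate filament protein, also fell with IFN-λ2, by 0.86 on the log2 scale against control (adjusted p = 0.0074, limma). It was at 10894 and 13859 units in control, at 6519, 6148 and 7810 units with IFN-λ2 and at 13323, 12825 and 14354 units with IFN-β, with the IFN-λ2 arrays below all others. Vim was the 1 called of 4 fibroblast markers tested. Col1a1 was also lower with IFN-λ2 than control at an unadjusted p under 0.05 in limma (log2 -0.47). Without IFN-β replicate 1, Dcn was called in that comparison (log2 -0.36 with all arrays), and both lay close to the floor. The summed level of the 6 fibroblast markers on the array, in which bright probes weigh most, was 10990 to 13960 units in control, 6241 to 7900 with IFN-λ2 and 12940 to 14450 with IFN-β. Of 8 leukocyte and antigen-presenting cell markers tested, 0 were called in any comparison of the 8 arrays in limma, and 2 were higher and 1 lower with IFN-λ2 than control at an unadjusted p under 0.05. The sum over the 11 with a probe, under the same limit, was 14170 to 17210 units in control, 11590 to 13700 with IFN-λ2 and 11730 to 18310 with IFN-β. Itgam was at a mean of 6519 units in control and 2656 with IFN-λ2 (adjusted p = 0.140) and spread from 2502 to 9762 units with IFN-β, while Csf1r was at 4733 units in control and 5916 with IFN-λ2 (adjusted p = 0.109) and Cd68 at 43.1 and 58.9 units (log2 0.45, adjusted p = 0.064). Without IFN-β replicate 2, Itgam was called lower with IFN-λ2 than with control and with IFN-β. Ptprc was then called higher with IFN-β than with control and with IFN-λ2. It was listed at the floor of 15 units on every control and IFN-λ2 array and on IFN-β replicate 2. On IFN-β replicates 1 and 3 it was at 39.6 and 33.5 units, so that its calls rest on floor values without spread in the other groups. Without IFN-β replicate 1, Cd68 was called higher with IFN-λ2 than with control and with IFN-β. Of the 8 epithelial markers, the cadherin Cdh1 (log2 0.45, adjusted p = 0.0256) and the keratin Krt19 (log2 0.42, adjusted p = 0.0197) were called higher with IFN-λ2 than control and the claudin Cldn3 lower (log2 -0.62, adjusted p = 0.0109), and Krt19 was also called higher than with IFN-β (log2 0.60, adjusted p = 0.00501). The calls against control were lost in 6, 5 and 1 of 10 alternatives, for Cdh1 and Krt19 with normexp and without either control array and for Cldn3 without control replicate 2, and the call of Krt19 against IFN-β was lost with normexp. The omission of IFN-λ2 replicate 1 or 3 and the replicate block also ended the call of Cdh1, and that of IFN-λ2 replicate 2 or 3 the call of Krt19. The part of these markers in the Ifi30 result was not tested.

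The other genes of lysosomal antigen processing were given by a list of 16, of which 12 were tested. With IFN-λ2, 4 were called higher than control and 0 lower in limma, where 10.9% and 8.28% of all probes were. A further 2, Ciita and Lamp2, were lower at an unadjusted p under 0.05. The median log2 difference was 0.04 against 0.01 over all probes. With IFN-β, 0 were called in limma and 1 had an unadjusted p under 0.05, on the higher side. Cd74, the invariant chain that escorts MHC class II, rose from a mean of 144 units to 687 units with IFN-λ2 (log2 2.26) and was at 175 units with IFN-β (log2 0.28, adjusted p = 0.273). H2-Eb1, a class II β chain (log2 0.79, adjusted p = 0.0128), H2-DMb1, a subunit of the peptide exchange factor H2-DM (log2 0.51, adjusted p = 0.0038), and the protease cathepsin H, Ctsh (log2 0.54, adjusted p = 0.0215), were the others called higher with IFN-λ2. The calls of H2-Eb1 and Ctsh were lost without control replicate 3, that of Ctsh also without IFN-λ2 replicate 1 or 2, and those of H2-DMb1 and Ctsh with normexp background correction. Ciita, the regulator of class II transcription, was at 75.2 and 52.8 units in control and at 25.5, 16.2 and 22.2 units with IFN-λ2, close to the floor and well above background on 2 of 3 of these arrays. Its log2 difference was -1.59 (adjusted p = 0.110), which became -0.31 with normexp and was called without IFN-β replicate 2. Ctss, H2-Aa, H2-Ab1 and H2-Oa were well above background on 0 arrays. Between the cytokines, 3 genes of the list were called higher with IFN-λ2, namely Cd74 (log2 1.97, adjusted p = 0.000117), H2-DMb1 (log2 0.49, adjusted p = 0.00411) and Ctsh (log2 0.43, adjusted p = 0.0451). Of all probes, 6.21% were called higher and 5.34% lower in this comparison. The call of H2-DMb1 was lost with normexp, and that of Ctsh in 6 of 10 alternatives, among them normexp, each omission of an IFN-λ2 array and that of IFN-β replicate 1 or 3. Lamp2, a lysosomal membrane protein, was the 1 called lower with IFN-λ2 than with IFN-β (log2 -0.35, adjusted p = 0.0139), a call lost without IFN-λ2 replicate 1 or IFN-β replicate 3 and with normexp. It was at log2 -0.22 against control (adjusted p = 0.0683).

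**Figure D2:**
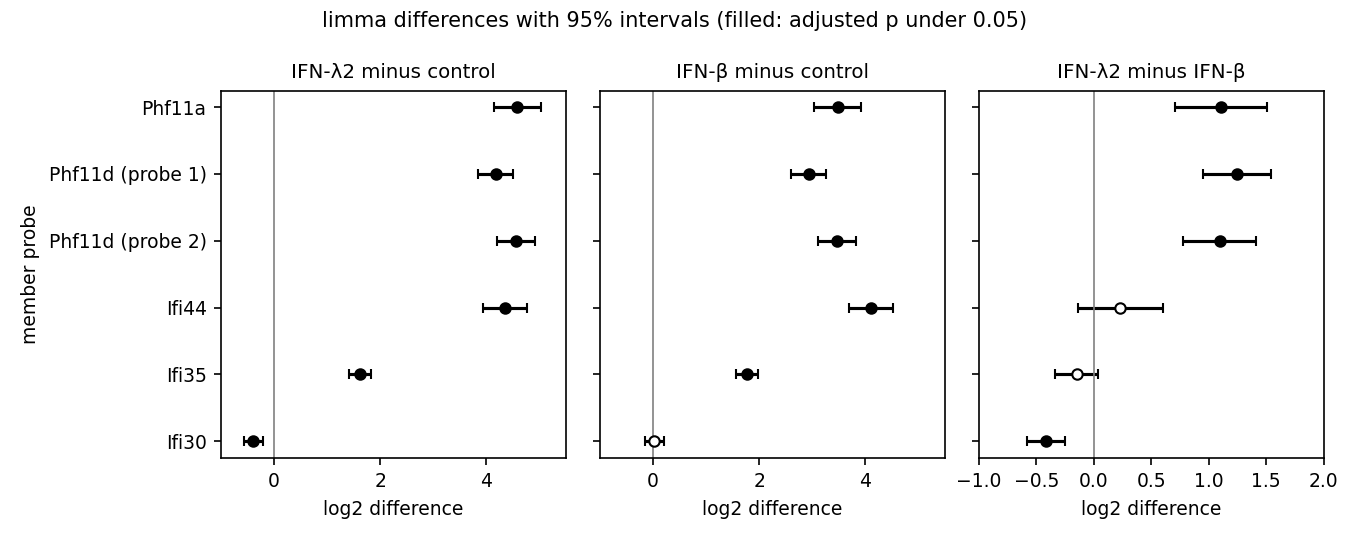
Log2 differences of the 6 member probes in the 3 comparisons, from limma on 8 arrays, with 95% intervals and filled points at an adjusted p under 0.05. The panel of IFN-λ2 minus IFN-β has a narrower axis and shows the Phf11 probes near 1.1 to 1.2, Ifi44 and Ifi35 with intervals across 0, and Ifi30 at -0.42.

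Against IFN-β, at 1 dose of each cytokine and 1 time, the member genes thus fell into 3 patterns. Phf11a and Phf11d were higher with IFN-λ2, Ifi44 and Ifi35 were called in neither direction, and Ifi30 was lower. The Ifi30 call was lost with normexp, and how these patterns depend on dose was not tested. Among all 25583 probes ranked by log2 change with IFN-λ2 from the highest, Phf11a stood at 18, probe 2 of Phf11d at 20, Ifi44 at 27, probe 1 of Phf11d at 33 and Ifi35 at 348. Among those ranked for IFN-β against control, Ifi44 stood at 10, Phf11a at 36, probe 2 of Phf11d at 37, probe 1 at 64 and Ifi35 at 153. Ifi44 therefore preceded the Phf11 probes with IFN-β and lay between them with IFN-λ2. The order was not tested. With normexp, Phf11a was at log2 3.86 with IFN-λ2, below Ifi44, which was at 4.10 or more in all 21 limma fits by probe. In all, 362 probes were called higher than control with both cytokines, and their median log2 ratio of IFN-λ2 to IFN-β was 0.19, with 103 (28.5%) called higher with IFN-λ2 and 8 called lower. In this order from the most IFN-λ2-weighted, Phf11b was at rank 8, Ifi27l2a at 19, the Phf11d and Phf11a probes at 21, 24 and 25, Ifi27l1 at 61, Ifi44 at 158 and Ifi35 at 331.

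**Figure D3:**
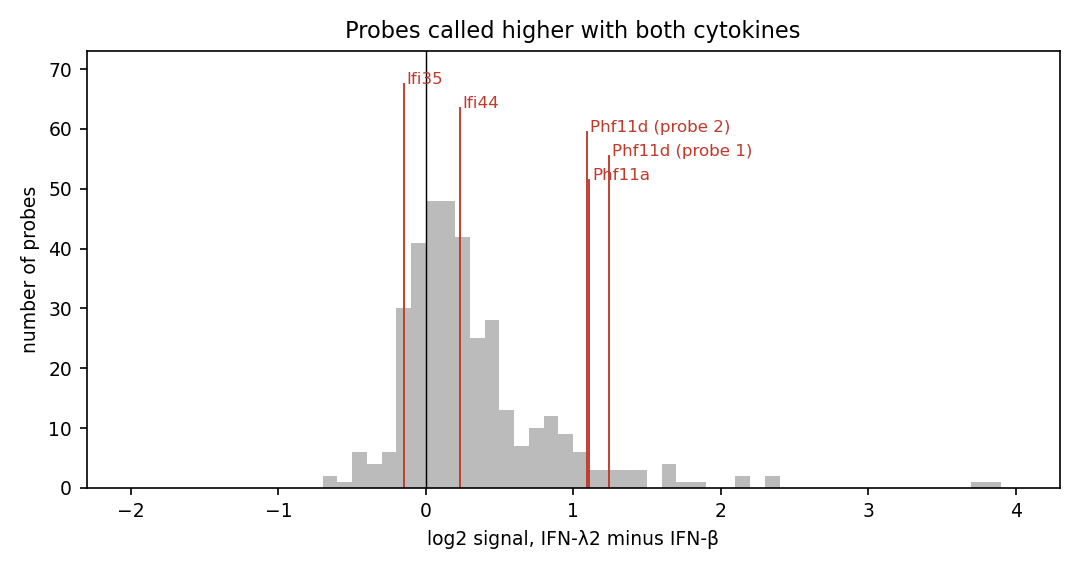
Distribution of the log2 ratio of IFN-λ2 to IFN-β over the 362 probes called higher than control with both cytokines, as number of probes per bin. Red lines mark member probes: Ifi44 at 0.23 lies near the median of 0.19, Ifi35 at -0.15 lies towards the low end (rank 331), and the 3 Phf11 probes lie at 1.09 to 1.25.

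The sign of the difference between the cytokines was the same on all 3 slides for 6 of 6 member probes, as it was for 51.2% of all probes tested. On the log2 scale it was 1.31, 1.12 and 0.90 for Phf11a on the slides of replicates 1, 2 and 3. Ifi44 was at 0.35, 0.13 and 0.22, Ifi35 at -0.10, -0.11 and -0.24, and Ifi30 at -0.53, -0.35 and -0.37. The slide of replicate 3 gave the smallest difference for each Phf11 probe.

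**Figure D4:**
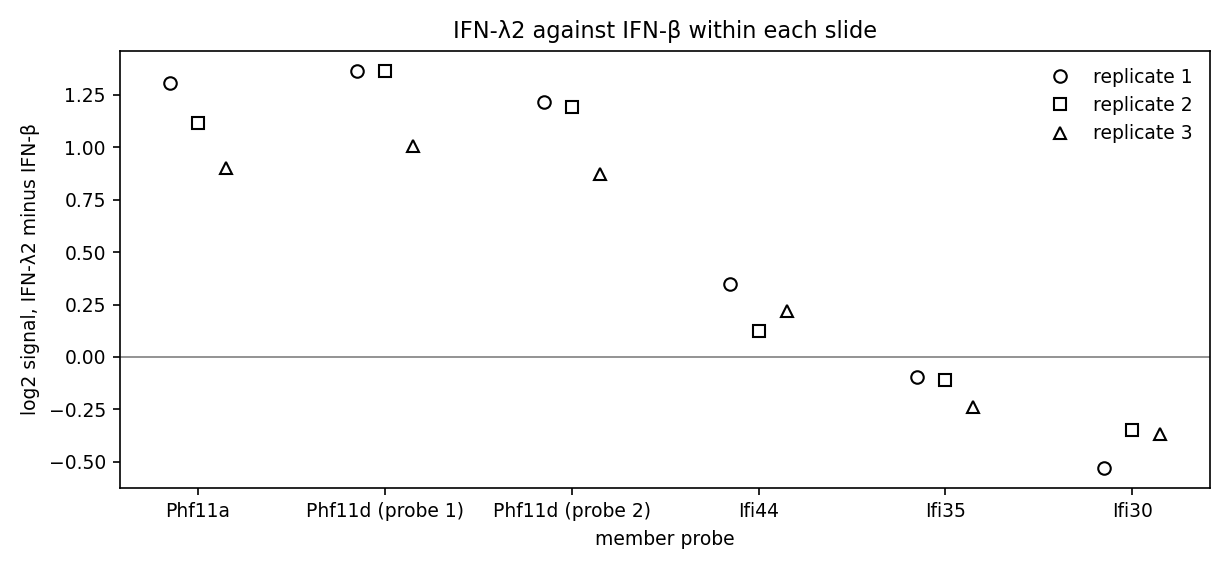
Log2 ratio of the IFN-λ2 array to the IFN-β array on each of 3 slides, which correspond to the replicate numbers, for the 6 member probes. Points of a probe lie on 1 side of 0, between 0.87 and 1.37 for the Phf11 probes, 0.13 to 0.35 for Ifi44, -0.24 to -0.10 for Ifi35 and -0.53 to -0.35 for Ifi30.

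The promoters of the members were searched for the paired GAAA boxes of the interferon-stimulated response element, since 4 of the 5 genes moved together against control. Windows from 250 bases before to 50 after the annotated start were taken from RefSeq on GRCm38.p6, and 5 of 5 members had one. A pair of GAAA boxes on the same strand with any 2 bases between them, sought on both strands, occurs in 3.44% of the 32851 windows of this length. It was found in Phf11a, at -29 to -20 from the start, and in its paralogue Phf11b, at -50 to -41, and in 1 of the 5 members in all. A version with 1 base between the boxes, GAAANGAAA, was added after the data were seen and occurs in 3.17% of windows. It was found in Phf11d across the start (-4 to 5), in Ifi44 on the opposite strand (-48 to -40) and in Ifi35 after the start (14 to 22). A run of 3 GAAA boxes with 2 bases between neighbours, found in 0.116% of windows, was in 0 member windows. None of these motifs was found in the windows of Ifi30, Phf11c, Ifi44l and Nmi, of which Nmi was called higher with both cytokines. A match describes letters in the window and was not tested for binding. The 180 bases from 150 before to 30 after each start are given with the paired GAAA boxes in capitals.
Phf11a, chr14:59297493-59297672, minus strand: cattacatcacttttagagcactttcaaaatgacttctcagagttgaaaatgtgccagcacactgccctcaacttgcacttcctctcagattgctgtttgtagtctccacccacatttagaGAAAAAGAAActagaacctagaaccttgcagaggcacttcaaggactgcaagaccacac
Phf11d, chr14:59365461-59365640, minus strand: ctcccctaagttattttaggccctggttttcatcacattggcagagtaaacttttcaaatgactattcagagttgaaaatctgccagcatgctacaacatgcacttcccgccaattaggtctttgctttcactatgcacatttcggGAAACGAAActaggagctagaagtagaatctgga
Ifi44, chr3:151749881-151750060, minus strand: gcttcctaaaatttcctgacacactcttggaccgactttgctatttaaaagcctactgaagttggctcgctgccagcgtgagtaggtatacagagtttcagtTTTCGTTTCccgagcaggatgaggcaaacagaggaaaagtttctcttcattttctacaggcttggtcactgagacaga
Ifi35, chr11:101448262-101448441, plus strand: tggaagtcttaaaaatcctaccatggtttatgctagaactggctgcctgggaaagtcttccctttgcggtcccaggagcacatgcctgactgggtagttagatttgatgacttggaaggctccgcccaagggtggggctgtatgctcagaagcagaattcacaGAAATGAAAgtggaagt
Ifi30, chr8:70766634-70766813, minus strand: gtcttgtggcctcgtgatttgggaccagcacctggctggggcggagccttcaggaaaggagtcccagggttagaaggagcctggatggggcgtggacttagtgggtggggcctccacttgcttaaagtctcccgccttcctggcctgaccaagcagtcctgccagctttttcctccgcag

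**Figure D5:**
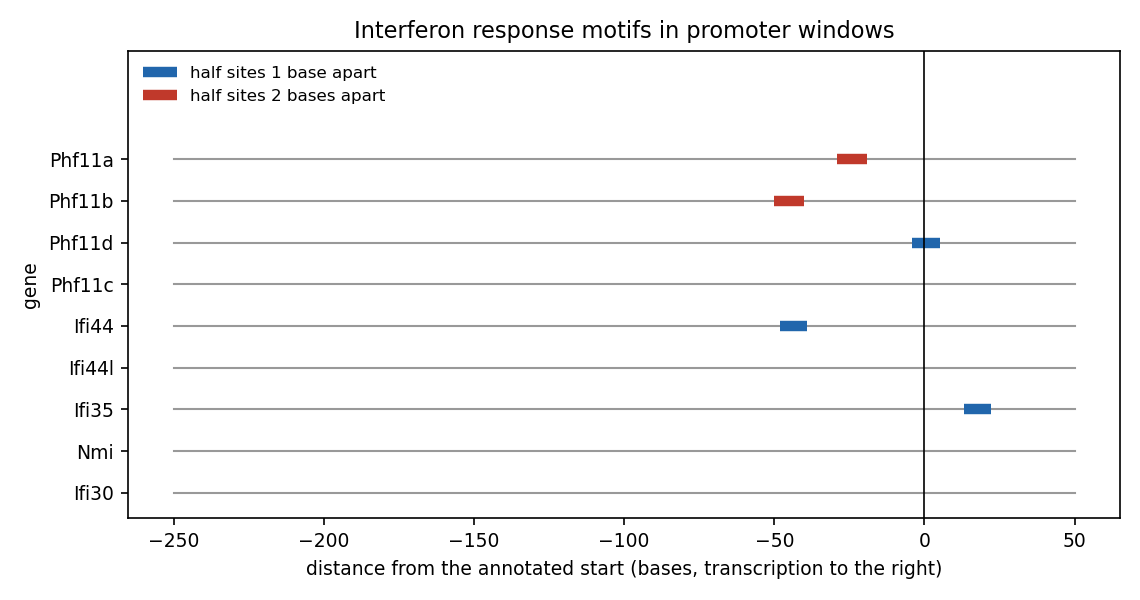
Positions of the searched motifs in the windows of 5 members and of Phf11b, Phf11c, Ifi44l and Nmi, as distance in bases from the annotated start with transcription to the right. The paired GAAA boxes lie within 50 bases of the start in Phf11a, Phf11b, Phf11d, Ifi44 and Ifi35, and 0 were found in Ifi30, Phf11c, Ifi44l and Nmi.

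The components of the signalling route were given by a list of 12 genes, all tested. With IFN-λ2, 6 were called higher, where 10.9% of all probes were, and 0 lower (median log2 0.59). With IFN-β, 6 were also called higher, where 1.51% of all probes were, and 0 lower (median log2 0.51). The 6 included Irf9 (log2 2.01 with IFN-λ2 and 1.93 with IFN-β), the transcription factor Irf7 (3.68 and 3.85) and Usp18, a feedback inhibitor of the type I receptor (3.78 and 3.56). The receptor genes Ifnlr1 (named Il28ra on the array), Il10rb, Ifnar1 and Ifnar2 and the kinases Jak1 and Tyk2 were called in neither comparison with control, with log2 differences between -0.28 and 0.15. Between the cytokines, Stat2 (log2 0.44, adjusted p = 0.0467) and Irf1 (log2 0.29, adjusted p = 0.0444) were called higher with IFN-λ2. The call of Stat2 was lost in 7 of 10 alternatives and that of Irf1 in 10 of 10, and the replicate block and each omission of an IFN-λ2 array were among them for both. Irf7, Irf9 and Usp18 were called in neither direction between the cytokines, as was found for Ifi44 and Ifi35.

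The probes with the most similar pattern over the 8 arrays were taken by Pearson correlation of log2 signal among 21743 probes, as a description of 8 points that share 3 groups. Phf11a was closest to Phf11d (r = 0.9996), whose probes share sequence, followed by the immunity-related GTPase Ifi47 (r = 0.9987), and the probe used for Phf11d was closest to Phf11a, Ifi47 (r = 0.9988) and Oasl1 (r = 0.9985). Ifi44 was closest to Mx2 (r = 0.9985), Parp14 and Gm1966, and Ifi35 to Rnf135 (r = 0.9977), Bst2 (r = 0.9970) and Parp10. The genes closest to Ifi30 were Tmem127 (r = 0.9959) and Fam110a (r = 0.9924), besides 1 probe without a gene symbol (r = 0.9932). Ifi30 correlated with the other members at r = -0.62 to -0.31.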

How the data were processed

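Per the labels, Cy3-labelled cRNA from total RNA was measured on 1-color Agilent arrays. The authors extracted intensity values with Agilent Feature Extraction 10.7.3.1, which subtracts background, and deposited for each array the processed signal intensity of every feature and a table of normalized intensity values. The labels name Trizol for RNA isolation and the study's methods an RNeasy kit, which was not settled here. For the member probes, the values used here differ from the deposited table by at most 0.0566%. Control replicate 1 was not analysed here.

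Features marked as outliers were left out, repeated probes were averaged, and each array was scaled to a 75th percentile of 1500 units. Values under 15 were set to 15, and log2 was taken. A probe was tested if 2 or more arrays exceeded that floor. A fit of 3 group means was made with limma 3.58.1 in R 4.3.3, with no block and with Benjamini-Hochberg adjustment over 25583 probes. The study's methods name 2-group and multigroup analyses in Qlucore and state neither this model nor a block. Intervals are at 95%, and folds are ratios of geometric means. On simulated data with 200 probes shifted by 2 on the log2 scale, the fit recovered 90.5% for IFN-λ2 against control, 91.5% for IFN-β against control and 91% between the cytokines, with 8, 7 and 11 false calls. The simulated arrays were independent normal draws, without the floor or shared slides. Recovery of differences under 2, such as those of the members between the cytokines, was not tested. The number of arrays limits the precision.

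The members and lists were chosen with earlier results of these data known. A gene of the signalling list and a motif are not reported here. A list gene with several probes is given by the tested probe with the highest mean signal, and the genes named are the members, the called or defining genes of the lists and, for likeness, the 3 other genes with the highest correlation. Names follow a gene table of GRCm38.p6, by accession for 26406 probes, by symbol for 3859 and by synonym for 735, while 8429 kept the name of the design. Probe positions were read from the array files (mm9). Python 3.11.15 with pandas 2.3.3 and numpy 2.4.6 wrote the tables. Per the barcodes in the file headers, replicate numbers mark slides, and each group had its own place on the slide, so that place and group cannot be told apart. Deviations of same-numbered IFN-λ2 and IFN-β arrays from their group means correlated at 0.285, 0.146 and 0.42 for replicates 1, 2 and 3. Of the unlike-numbered pairs, IFN-λ2 replicate 2 with IFN-β replicate 1 was at 0.114. IFN-λ2 replicate 3 with IFN-β replicate 2 was at 0.0811, and the others were negative. For same-numbered control arrays the values were -0.267 and -0.244 with IFN-λ2 and 0.174 and -0.338 with IFN-β. Whether the numbers pair the arrays beyond the shared slide was not tested. The alternatives were other background correction, normalization, floors, filters, values and feature exclusion, a block for the replicate number, each array left out in turn, a fit of 2 groups, a variance trend, an unmoderated test per probe, means per gene and other motif definitions.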

Additional observations from a re-analysis of the deposited data

How the results depend on the processing

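Of 743 values recomputed under alternatives, 0 reversed a call, 680 kept their direction and side of the threshold or, for counts, stayed within 1.5 times, and 63 did not. The 3 Phf11 probes were called with IFN-λ2 above IFN-β in all 21 limma fits by probe, the reported one included, with log2 differences of 0.98 to 1.21 for Phf11a, 1.16 to 1.32 for probe 1 and 1.01 to 1.17 for probe 2 of Phf11d and a highest adjusted p of 0.0338. Ifi44 and Ifi35 were not called between the cytokines in any of these fits. A fit to the mean over the probes of each gene called Phf11a (log2 1.11) and Phf11d (log2 1.17) higher with IFN-λ2. The Ifi35 feature had a local background outlier mark on 4 of 8 arrays, and leaving it out, chosen after the data were seen, gave log2 1.63 and 1.79 against control.

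With normexp background correction, 1090 probes were called for IFN-λ2 against control, 214 for IFN-β against control and 717 between the cytokines, in place of 4915, 441 and 2955. Ifi30 lost its calls there (log2 -0.45, adjusted p = 0.171, against control and log2 -0.46, adjusted p = 0.128, against IFN-β), so that 0 member probes were called lower. The list genes called fell to 2 for antigen processing with IFN-λ2 against control and to 1 between the cytokines, to 1 for genomic neighbours in both, and to 0 for interferon signalling between the cytokines. With the replicate block, no member call changed, and the highest adjusted p of a called member probe was 0.0496, for Ifi30 against control. The block gave 266 probes for IFN-β against control, 3 and 1 genomic neighbours for IFN-λ2 against control and between the cytokines, and 0 signalling genes between the cytokines. A fit of only the 2 groups compared gave 241 probes for IFN-β against control.

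A test per probe with equal variances and no moderation, which the study's methods do not name, called 368, 160 and 281 probes in the 3 comparisons at an unadjusted p under 0.001 and a 2-fold change, with no q-value criterion. It lost Ifi30 (log2 -0.40 and -0.42, with 0 member probes lower), Phf11a with IFN-β (log2 3.48) and Phf11a between the cytokines (log2 1.11). After Benjamini-Hochberg adjustment it called 1789, 97 and 1738 probes and lost Ifi30 against control (log2 -0.40, adjusted p = 0.0771) and, with IFN-β, all 5 member probes, at log2 1.77 for Ifi35, 4.12 for Ifi44, 3.48 for Phf11a, 2.93 and 3.47 for Phf11d (adjusted p 0.0554 to 0.112).

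Leaving out 1 array at a time gave 2699 to 5326 probes for IFN-λ2 against control and 1497 to 2786 between the cytokines, lowest without IFN-λ2 replicate 1. Without a control array, the lone control is assumed to vary like the other groups. Ifi30 was at log2 -0.44 to -0.35 against control and lost its call without control replicate 3, so that 0 to 1 member probes were called lower. The list counts were 2 to 5 for antigen processing with IFN-λ2 against control and also between the cytokines, 3 to 5 and 1 to 3 for genomic neighbours, and 0 to 1 for signalling genes between the cytokines. The search for 3 GAAA boxes found 0 members and that for boxes 1 base apart found 3.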

Other observations

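The genes that flank the members on the chromosome were also measured. Of 12 neighbours tested, 2 were called higher with IFN-λ2 than control, where 10.9% of all probes were, and 3 lower, where 8.28% were. The median log2 difference was -0.06 against 0.01 over all probes tested. With IFN-β, 1 was called higher, where 1.51% of all probes were. The 2 called higher with IFN-λ2 were Phf11b and Phf11c, the copies next to Phf11a and Phf11d, which are also counted among the paralogues. The call of Phf11c was lost in 4 of 10 alternatives. Rcbtb1, on the other side of Phf11a, was at log2 -0.22 with IFN-λ2 (adjusted p = 0.449) and -0.09 with IFN-β (adjusted p = 0.893).

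Beside Ifi30, the small GTPase gene Rab3a was lower with IFN-λ2 than control (log2 -0.56, adjusted p = 0.00636), and so was Pik3r2, a regulatory subunit of phosphoinositide 3-kinase (log2 -0.53, adjusted p = 0.00749). Pik3r2 was also lower with IFN-λ2 than with IFN-β (log2 -0.39, adjusted p = 0.0203). The other neighbours of Ifi30, Mpv17l2 (log2 0.11) and Mast3 (log2 -0.31, adjusted p = 0.0751), were not called against control. The calls of Rab3a and Pik3r2 against control were lost with normexp background correction (highest adjusted p of 0.0913 and 0.162), while their log2 differences lay between -0.61 and -0.53 and between -0.63 and -0.43 over 10 alternatives, and that of Pik3r2 against IFN-β was lost in 6 of 10 alternatives, namely normexp, the replicate block and the omission of IFN-λ2 replicate 1 or 3 or of IFN-β replicate 2 or 3.

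Around Ifi35, Vat1 was called lower with IFN-λ2 (log2 -0.40, adjusted p = 0.0269) and was at log2 -0.39 with IFN-β (adjusted p = 0.131). The call was lost in 5 of 10 alternatives, namely normexp, the replicate block and the omission of control replicate 3 or of IFN-λ2 replicate 1 or 3, whereas Rpl27, Rundc1 and Rnd2 were not called in any comparison. Of the neighbours of Ifi44, Adgrl2 was the 1 tested and was not called, and Adgrl4, Ptgfr and Ifi44l were well above background on 0 arrays.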
